A study of Homo sapiens with 8 samples.

Results

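The interior of human chromosome 4 was described by the H3K9me3 intervals of 3 ChIP-seq libraries from PC9, an established lung adenocarcinoma line with an activating EGFR mutation. The interior is hg19 chromosome 4 without the outer 5 Mb at each end and without the centromeric (acen) bands, that is chr4:5000001-48200000 and chr4:52700001-186154276, 176.7 Mb cut into 3533 tiles of 50 kb out of 54054 such tiles on 22 autosomes and X. It was chosen by measured values, namely its covered length in these 3 libraries, which was higher in persisters than in parental cells and lower again after a deacetylase inhibitor. Those ratios are therefore given as a description and serve as support for nothing. The interiors of chromosomes 13 and 18, also gene-poor, were cut the same way for comparison, giving 2039 and 1289 tiles.

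3 states were profiled with 1 H3K9me3 library each and no replicates. Parental PC9 cells received no drug. Drug-tolerant persisters, DTP in short, were the cells still alive after 8 days in 1 uM erlotinib, which blocks the EGFR kinase. In DTP + TSA the persisters also received the histone deacetylase inhibitor trichostatin A at 50 nM for 5 hours. Nothing says how far a second library of a state would differ, so no test was run. Ranges in parentheses after a share are exact Clopper-Pearson 95% intervals and cover counting error only. The read depth behind the lists is unknown.

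H3K9me3 is laid down by the methyltransferases SUV39H1, SUV39H2 and SETDB1 and is bound by HP1 proteins, which compact the chromatin that carries it. In gene-poor chromosome interiors much of it lies on transposable elements, among them LINE-1, a retrotransposon that copies itself through an RNA intermediate. Histone deacetylases remove acetyl groups that stand in the way of methylation at the same lysine, so deacetylase inhibitors can disturb this mark. The label gene-poor held: chromosome 4 has 4.04 protein-coding genes per Mb in a GRCh38 gene table, against a median of 5.77 over the autosomes, and only chromosomes 13 (2.96) and 18 (3.36) have fewer.

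Parental cells had little H3K9me3 in the interior of chromosome 4. Intervals covered 1.85% of it (3.26 Mb in 977 intervals), the lowest share of the 22 autosomes; X alone was lower, at 1.56%. In DTP the covered share was 4.12% (7.27 Mb in 2693 intervals) and took place 9 from the lowest of the autosomes. In DTP + TSA it was 3.26% (5.76 Mb in 2322 intervals). The covered length was thus 2.23 times the parental one in DTP and 0.79 times the DTP one after TSA, which left it at 1.77 times the parental length.

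The comparison interiors moved less. Chromosome 13 went from 2.81% to 3.6% and 3.26%, or from 3.16% to 4.05% and 3.66% when only its long arm was taken, since its short arm had no interval in any library. Chromosome 18 went from 3.66% to 3.91% and 3.67%. The 22 interiors other than chromosome 4 together had 4.15%, 5.22% and 5.12%, a DTP over parental ratio of 1.26 and a DTP + TSA over DTP ratio of 0.98. Chromosome 4 was below their pooled share in each of the 3 libraries. Of single chromosomes, only X had a higher DTP over parental ratio (2.69) and a lower DTP + TSA over DTP ratio (0.75).

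The parental list has 23842 intervals, the DTP list 47866 and the list after TSA 53000, and this bears on every covered length. Of all intervals, chromosome 4 held 4.10% in parental cells, 5.63% in DTP and 4.38% after TSA. When each library was limited to its 23842 intervals of highest mean value, the DTP over parental ratio on chromosome 4 turned to 0.80, and the DTP + TSA over parental ratio to 0.61. Over all 23 interiors the same restriction gave 0.68 and 0.56. The direction of the DTP difference thus turned when the lists were made equal in number. It did not turn with the intervals above each library's median mean value (2.30), where the lists keep their unequal numbers. The DTP + TSA over DTP ratio on chromosome 4 was 0.76 under the restriction and 0.79 without it. Over all 23 interiors it was 0.83 under the restriction and 0.97 without it, so chromosome 4 lay nearer to the other interiors under the restriction.

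Most of the length added in DTP lay on the long arm. On the long arm (4q) parental cells had 1.61% coverage, DTP 4.34% and DTP + TSA 3.16%. On the short arm (4p) it went from 2.59% to 3.43% and 3.59%. In parental cells the short arm was the more covered of the pair, and in DTP the long arm was. The DTP over parental ratio was 2.70 on 4q and 1.33 on 4p. Of the 4.01 Mb by which the covered length of DTP exceeded that of parental cells, 90.9% lay on 4q, which makes up 75.5% of the interior. After TSA, 4q had 1.58 Mb less than in DTP, and 4p had 0.067 Mb more.

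Among 42 chromosome arm interiors with a ratio, 4q was second in DTP over parental coverage. Xq was higher at 2.78, and Xp (2.52) and 9p (2.2) came next. The short arm of chromosome 4 stood at place 19. In the DTP + TSA over DTP ratio, 4q was the lowest of the 42 arms at 0.73, and 4p stood at 1.05. The 2 arms of chromosome 4 differed in their DTP over parental ratio by a factor of 2.04, more than the arms of any of the other 18 chromosomes with both arms, of which chromosome 5 (1.71) and chromosome 9 (1.63) came nearest. The split by arm was made after the data had been seen, and no test of it was run.

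**Figure D1:**
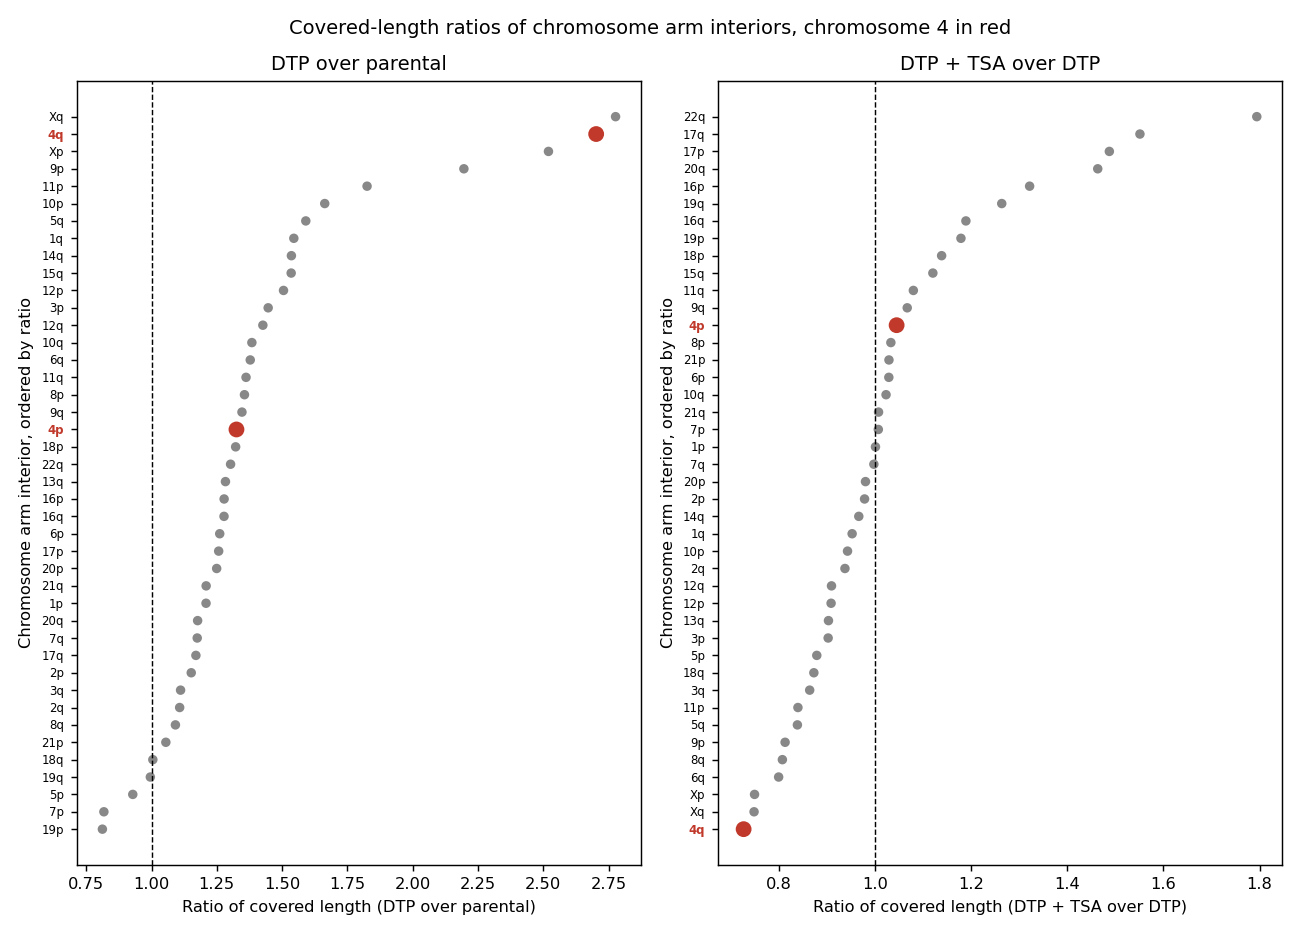
Ratio of covered length in the interiors of 42 chromosome arms, DTP over parental on the left and DTP + TSA over DTP on the right, 1 point per arm, with a dashed line at equal length. The long arm of chromosome 4 is second from the top on the left (2.70) and last on the right (0.73), while the short arm lies at 1.33 and 1.05.

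The difference between the arms stood under every choice of intervals, although the ratios themselves moved. With each library limited to the same number by mean value, DTP over parental was 0.95 on 4q and 0.54 on 4p, a factor of 1.77 between the arms. Ranked by summit value the ratios were 1.08 and 0.64. With the shorter intervals removed (below 2600 bp, the median of the 3 lists pooled) they were 2.17 and 0.97. Over the 6 choices the 4q ratio was between 1.69 and 2.24 times the 4p ratio. The choices all draw on the same 3 lists, so their agreement is no support for a split made after the data were seen.

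**Figure D2:**
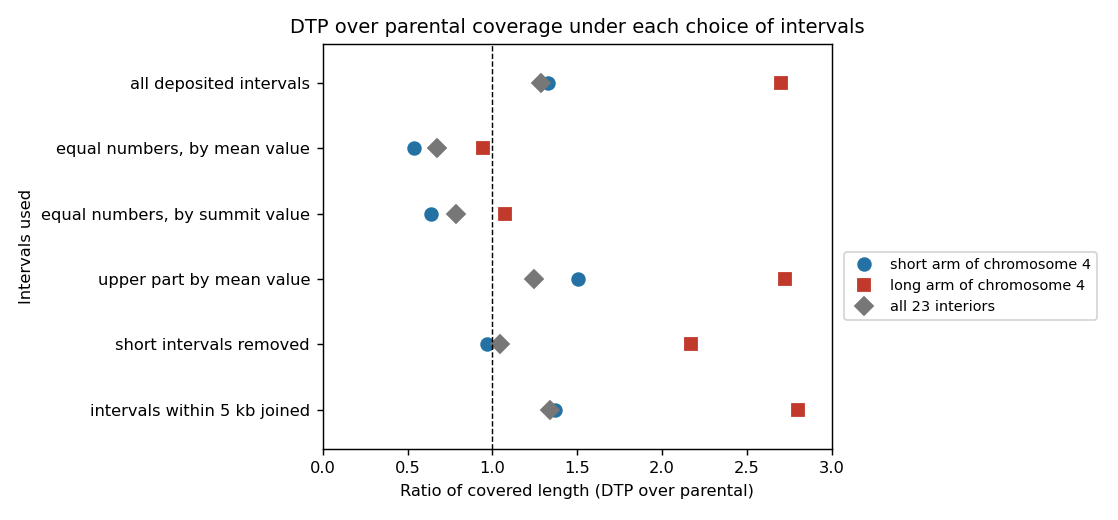
DTP over parental ratio of covered length (horizontal axis) for the short arm, the long arm and all 23 interiors, with 1 row for each choice of intervals and a dashed line at equal length. The long arm (squares) lies to the right of the short arm (circles) in each row, and both move below or close to 1 when equal numbers of intervals are taken.

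The long arm had the higher ratio in each Giemsa stain class. Within light (gneg) bands DTP over parental was 2.68 on 4q and 1.34 on 4p. Within the darkest (gpos100) bands, which are AT-rich and poor in genes, it was 2.53 on 4q and 1.21 on 4p. The short arm exceeded 2 only in gpos75 (2.19, from 0.92% to 2.01%) and in the single gpos25 band 4p16.2 (2.59). On 4q the lowest ratio of any stain was 2.24, in gpos50.

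Parental intervals were kept more often on 4q. Of the 664 parental intervals on 4q, 490 or 73.8% (70.3 to 77.1) met a DTP interval in at least 1 bp, against 171 of 313 or 54.6% (48.9 to 60.2) on 4p. The reverse held for the DTP list: 23% (21.2 to 24.8) of 2126 DTP intervals on 4q overlapped a parental one, against 31.0% (27.3 to 35.0) of 567 on 4p. In the other 22 interiors the first share was 62.9% and the second 34.2%. The share of parental intervals met by DTP was thus above that of the other interiors on 4q and below it on 4p.

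All 43 bands of the interior had higher coverage in DTP than in parental cells, by between 0.26 percentage points in 4p14 and 6.56 in 4q21.3. On 4q, 27 of 33 bands at least doubled, with a median ratio of 2.97. On 4p, 2 of 10 bands at least doubled, with a median of 1.40. In windows of 1 Mb, DTP was higher in 132 of 133 windows of 4q and in 32 of 43 windows of 4p. With all deposited intervals, the higher DTP coverage on 4q was thus spread along the arm. Most bands of chromosomes 13 and 18 were also higher in DTP, with exceptions such as 13q13.2 (12.0% to 4.92%) and 18q21.33 (6.56% to 3.22%). These counts rest on a DTP list longer than the parental one. With equal numbers by mean value the 4q ratio was 0.95, and bands and windows were not examined under that limit.

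Band 4q23 was the most covered band in parental cells and in DTP, at 6.47% and 10.5%, and had 6.73% after TSA, the band with the largest lower value against DTP in percentage points (-3.81). Band 4q28.1 came next in DTP, at 6.27% in parental cells, 8.64% in DTP and 6.17% after TSA. After TSA both bands were near their parental share, but they are named here for their high DTP share. Bands with almost no parental mark also gained. Band 4q22.2 went from 0.10% (1 interval) to 2.24% (14 intervals) and 1.49% (9 intervals), and 4q32.2 from 0.12% (2 intervals) to 2.24% (30 intervals) and 1.81% (25 intervals). The least covered band of DTP was 4q34.3, at 0.80%, 1.47% and 1.14%, and it also held the longest run of tiles with no interval in any library, 800 kb at chr4:180600001-181400000.

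**Figure D3:**
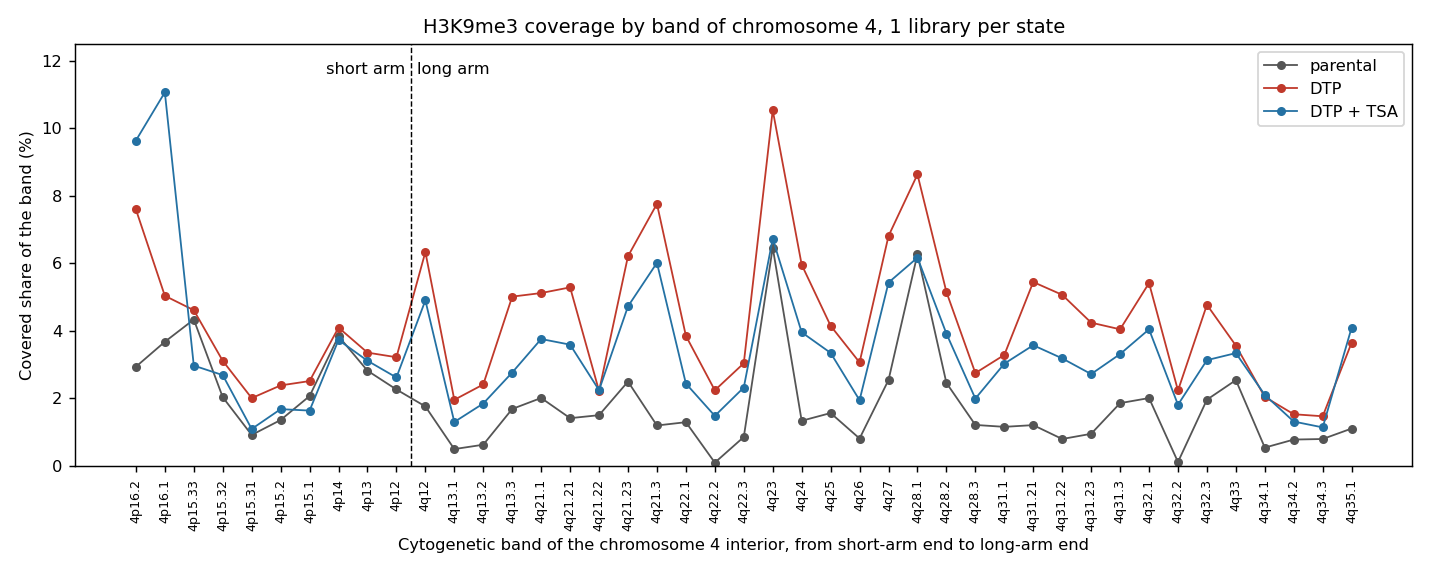
Covered share (vertical axis, percent) of each of the 43 bands of the chromosome 4 interior in parental cells, DTP and DTP + TSA, with the arms parted by a dashed line. DTP lies above parental cells in every band, by a wide margin on the long arm, and DTP + TSA lies between them in most long-arm bands and far above both in 4p16.1 (11.1%).

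DTP + TSA was below DTP in 38 of 43 bands, and the 5 exceptions were 4p16.2, 4p16.1, 4q21.22, 4q34.1 and 4q35.1. Of these, 4q21.22 and 4q34.1 differed by less than 0.06 percentage points. Most bands of chromosomes 13 and 18 were also lower after TSA than in DTP, with exceptions such as 13q12.12 (4.63% to 7.64%) and 18p11.21 (7.34% to 8.86%). In windows of 1 Mb, DTP + TSA was lower in 121 of 133 windows of 4q. DTP + TSA was below DTP in each stain class of the long arm, with ratios between 0.66 and 0.79. Against parental cells, DTP + TSA was higher in 39 of 43 bands, the exceptions being 4p15.33, 4p15.1, 4p14 and 4q28.1.

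The distal short arm went the other way after TSA. In the 5 Mb next to the end cut of 4p, the parental share was 4.12%, the DTP share 6.36% and the DTP + TSA share 13.4%, 2.1 times the DTP length. Between 6 and 9 Mb of the short arm it was 5.67%, 6.97% and 17.3%. The window chr4:8000001-9000000 had 4.4%, 7.84% and 25.2% in the same order, the most covered 1-Mb window of the interior in any library. The corresponding 5 Mb at the long-arm end had 0.72%, 2.39% and 2.61%, a DTP + TSA over DTP ratio of 1.09. Without the distal 5 Mb of 4p the interior had a DTP + TSA over DTP ratio of 0.73, and the rest of the short arm had 0.76.

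At the cut itself coverage was not uniform. The 1 Mb just inside the cut of the short arm had 2.94%, 7.60% and 9.64% in parental cells, DTP and DTP + TSA, and the 1 Mb just outside had 3.72%, 4.10% and 5.62%. At the long-arm end the 1 Mb inside had 1.32%, 4.46% and 4.64%, and the 1 Mb outside 3.00%, 2.82% and 2.60%.

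Single tiles were mostly empty in parental cells. Of the 3533 tiles, 77.7% had no covered base in the parental library, 49.1% in that of DTP and 55.7% after TSA. A tile was called when its covered length in 2 libraries differed by at least 2 times and 2 kb. By this rule 898 tiles (25.4%) were higher in DTP than in parental cells, against 22.6% of all tiles of the 23 interiors. The share of gained tiles was thus close to the background, although the covered length had changed more on chromosome 4. Lower tiles were 152 (4.30%), against 8.21% of all tiles. Of the 614 tiles with at least 2 kb of parental coverage, which could be called lower, 24.8% were, against 33.1% in the other 22 interiors, 39.8% on chromosome 13 and 40.8% on chromosome 18. The shares of higher tiles on chromosomes 13 and 18 were 19.4% and 18.9%.

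On 4q, 27.6% of the tiles were higher in DTP and 3.15% lower. On 4p these were 18.6% and 7.87%. Among the 898 higher tiles, 724 (80.6%) had no parental coverage at all, and 438 held a single DTP interval. Of all chromosome 4 tiles 77.7% had no parental coverage, so the share among the higher tiles was close to that of all tiles. In the other 22 interiors 8929 of 11307 higher tiles had no parental coverage. The median covered share of the 898 tiles was 8.80% in DTP and 5.2% in DTP + TSA. These tiles were picked by their high DTP share, so the lower value after TSA cannot be read as an effect of TSA.

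Between DTP and DTP + TSA, 381 tiles (10.8%) were lower after TSA, against 8.67% of all tiles, and 109 (3.09%) were higher, against 7.21%. Of the tiles with no DTP coverage, 3.17% reached the call after TSA on chromosome 4, against 9.31% in the other 22 interiors. Few new tiles thus appeared on chromosome 4 after TSA. Between parental cells and DTP + TSA, 667 tiles (18.9%) were higher, against 21.5% of all tiles, and 181 (5.12%) were lower, against 9.08%.

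Single tiles are named for the size of their difference. The largest difference in favour of DTP over parental cells was at chr4:104150001-104200000 in 4q24, which had no interval in parental cells, 4 intervals over 38% of the tile in DTP and 2 over 29.2% after TSA. The tile chr4:79000001-79050000 in 4q21.21 went from 0 to 34.4% and 23.6%. In both the covered share after TSA lay between the parental and the DTP share. Both tiles were picked for a large DTP share over a parental share of 0, so this position shows no return after TSA. The largest difference the other way was at chr4:11600001-11650000 in 4p15.33, with 55.6% in the parental library, 3.6% in DTP and 0 after TSA. The 5 tiles with the largest lower values in DTP all lay on 4p, and 4 of the 5 with the largest higher values on 4q.

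The 5 tiles with the largest higher values after TSA than in DTP were all in 4p16.1, within chr4:8650001-8950000. The tile chr4:8850001-8900000 had a parental share of 5.2%, which became 42.4% in DTP and 77.6% after TSA, so that it was among the 5 largest in each step. The neighbouring chr4:8650001-8700000 had none in parental cells or DTP and 32.4% after TSA. The largest lower value after TSA was at chr4:100150001-100200000 in 4q23, where 5 DTP intervals covered 31.6% of a tile that had none in parental cells and none after TSA.

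Coverage was more evenly spread over the tiles in DTP than in parental cells. The 353 most covered tiles (10% of all) held 72.5% of the covered length in parental cells, 45.3% in DTP and 50.7% after TSA. The same was seen in the comparison interiors, with 71.5%, 48.8% and 50.7% on chromosome 13 and 64.9%, 45.5% and 49.6% on chromosome 18. On chromosome 4 the numbers of tiles below are in the same order of libraries. Tiles with the midpoints of 4 or more intervals numbered 12, 63 and 48. The median gap between neighbouring intervals was 78.3 kb, 33.5 kb and 36.2 kb, against 44.0, 30 and 27.6 kb in the other 22 interiors. A median gap depends on the number of intervals, which was 977, 2693 and 2322 on chromosome 4. With equal numbers by mean value, chromosome 4 held 977, 984 and 854 intervals. Neither the gap nor the spread over tiles was examined under that limit. Over 176 windows of 1 Mb the median coverage was 1.14%, 3.67% and 2.77%. The order of these windows had a Spearman rho of 0.67 between parental cells and DTP and of 0.92 between DTP and DTP + TSA; the windows share their libraries and base composition, and these values are a description.

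In the interior as a whole 10.2 Mb was covered in at least 1 library. Of this length 26.5% was covered in DTP alone, 28.6% in DTP and DTP + TSA, 12.7% in all 3 libraries and 14.0% in parental cells alone. In the other 22 interiors these shares were 15.6%, 21.3%, 18.4% and 21.8%. On chromosome 13 they were 18.4%, 22.7%, 13.3% and 25.9%, and on chromosome 18 they were 15.3%, 20.2%, 13.9% and 29.4%. Chromosome 4 thus had larger shares on the DTP side and a smaller parental-only share than each of the comparison sets.

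**Figure D4:**
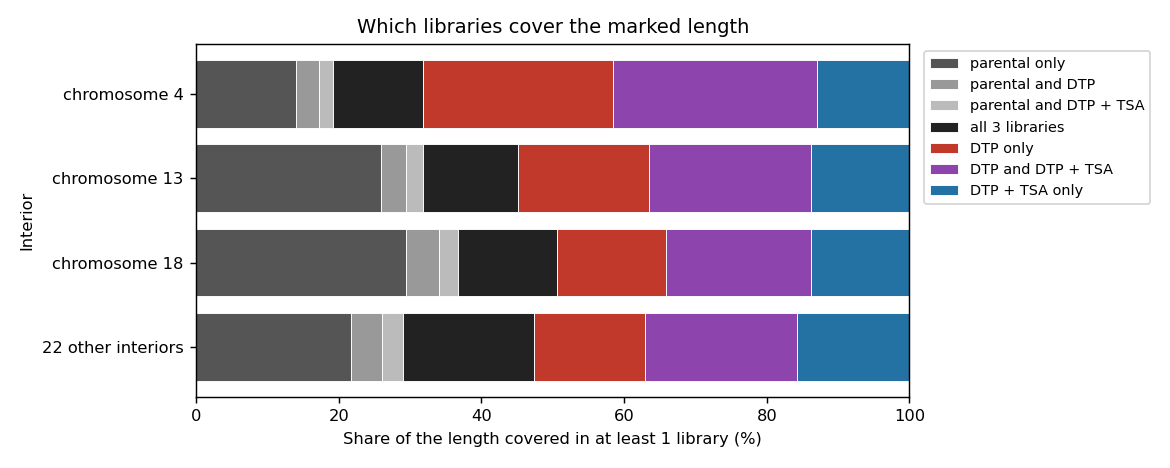
Share (horizontal axis, percent) of the length covered in at least 1 library, split by which of the 3 libraries cover it, for the interiors of chromosomes 4, 13 and 18 and the other 22 interiors pooled. On chromosome 4 DTP alone (26.5%) and DTP with DTP + TSA (28.6%) take up more than on the others, and parental alone (14.0%) takes up less.

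Counted by intervals, 661 of 977 parental intervals, or 67.7% (64.6 to 70.6), overlapped DTP, against 62.9% in the other 22 interiors. In DTP 664 of 2693, or 24.7% (23 to 26.3), met a parental one, against 34.2% elsewhere. DTP + TSA intervals met 1737 of those of DTP, or 64.5% (62.7 to 66.3), against 70.5% elsewhere. In the other direction 77.1% (75.3 to 78.8) of the 2322 DTP + TSA intervals overlapped DTP, against 68.0% elsewhere. On chromosome 4 the DTP + TSA list was shorter than the DTP list, and elsewhere it was longer (42564 against 39947 intervals). Chromosome 4 was chosen for its lower coverage after TSA, so the larger share of the shorter list serves as support for nothing.

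Whether a DTP interval was also found after TSA went with its length and its mean value. Of DTP intervals up to 1 kb, 40% (34.3 to 45.9) overlapped DTP + TSA. The share was 53.6% (50.4 to 56.7) at 1.2 to 2 kb, 70.5% (67.5 to 73.4) at 2.2 to 4 kb and 84.2% (78.5 to 88.9) at 4.2 to 5.6 kb. All 35 DTP intervals of 8.2 to 16 kb overlapped a DTP + TSA interval. A longer interval has more bases at which to meet another, and how much of this order that makes up was not tested. The same classes in the other 22 interiors had 39.9%, 57.7%, 75.8%, 85.6% and 98.2%, so the order was much the same there. By the percentile rank of an interval's mean value among all intervals of its own library, DTP intervals also found after TSA had a median rank of 50.0 and those not found 17.5.

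The intervals of chromosome 4 had low median lengths and low median ranks of the mean value in each library. The median length was 2800 bp for parental cells, 2200 bp for DTP and 2000 bp after TSA, against 3800, 2400 and 2200 bp in the other 22 interiors. Chromosomes 13 and 18 had the same medians as chromosome 4 in DTP and after TSA, and 3400 and 3800 bp in parental cells. The median percentile rank of the mean value was 38.9 for parental cells, 37.0 for DTP and 40.1 after TSA, the lowest of the 22 autosomes in each library. X was lower in each library, at 37.9, 35.6 and 36.4. The top 10% of each list by mean value held 6.35%, 6.68% and 10.4% of the chromosome 4 intervals in the same order. In the other 22 interiors these shares were 7.27%, 9.63% and 9.71%, so after TSA chromosome 4 was not short of strong intervals. Parental intervals with no overlap in DTP or DTP + TSA had a median rank of 20.1, and those found in all 3 libraries 50.2. The mean values are the authors' own and were compared only within a library.

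Within length classes the ranks were as follows. In parental cells intervals up to 1 kb had a median rank of 77.8 on chromosome 4 and 78.8 elsewhere. Intervals of 4.2 to 5.6 kb had a median rank of 30 on chromosome 4 and 43.0 elsewhere in parental cells, and 26.7 and 45.9 in DTP. On 4q the median ranks were 38.8, 35.6 and 38.8 in parental cells, DTP and DTP + TSA, and on 4p 39.6, 43.4 and 43.8. The arm with the larger DTP gain thus held the lower-ranked DTP intervals.

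An excess of intervals near 6 kb appeared in DTP. Full-length LINE-1 elements have a length close to this, but no repeat annotation was used here, and which intervals hold one was not examined. Intervals of 5.8 to 6.2 kb numbered 25 for parental cells, 128 for DTP and 65 after TSA. They made up 2.56%, 4.75% and 2.80% of the chromosome 4 intervals, against 4.56%, 4.81% and 3.26% in the other 22 interiors. Chromosome 4 was thus not richer in this class than the other interiors. Its intervals of 4.8 to 5.2 kb numbered 47, 59 and 44. Set against these, the ratios of the class were 0.53 (0.31 to 0.88), 2.17 (1.58 to 3.01) and 1.48 (0.99 to 2.22). In the other 22 interiors they were 0.69, 1.5 and 1.13, and on chromosome 13 they were 0.50, 2.00 and 1.68. Chromosome 18 had 0.71, 1.52 and 1.5. Just outside the class, DTP had 35 intervals of 5600 bp and 23 of 6400 bp, and just inside it had 41 of 5800 bp and 32 of 6200 bp, with 55 at exactly 6000 bp.

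**Figure D5:**
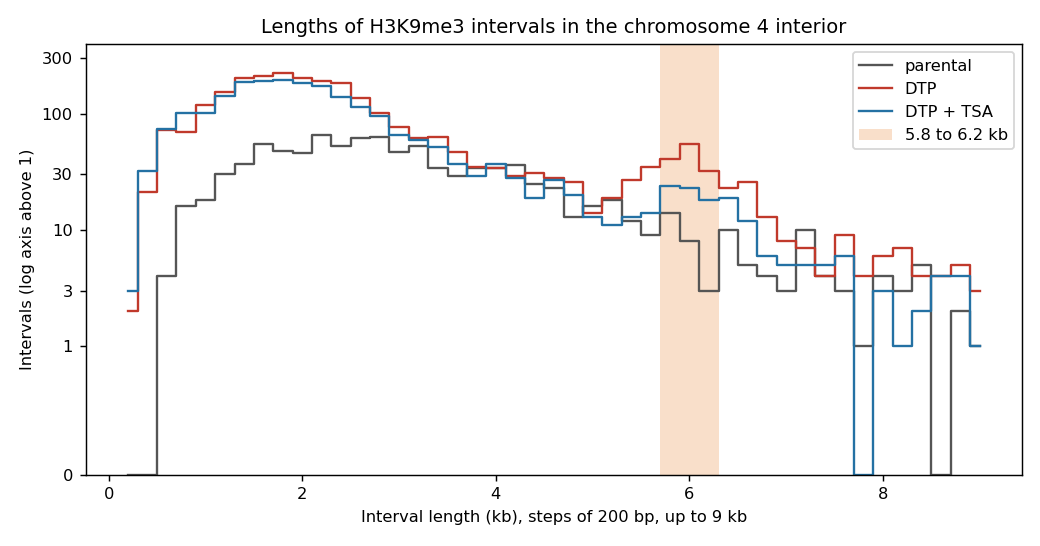
Number of H3K9me3 intervals (vertical axis, logarithmic above 1) by length in steps of 200 bp (horizontal axis, kb) in the chromosome 4 interior, 1 line per library, up to 9 kb. DTP has a peak at 6.0 kb with 55 intervals inside the shaded range of 5.8 to 6.2 kb, where parental cells have 8 and DTP + TSA 23.

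By arm, 110 of the 128 DTP intervals of the class (85.9%) were on 4q, which held 78.9% of all DTP intervals of the interior. There the ratio to the shorter flank was 2.56 (1.78 to 3.73). On 4p it was 1.13 (0.54 to 2.36), with 18 intervals of the class, and the ranges of the arms overlap. In DTP + TSA the ratio was 2.15 (1.33 to 3.57) on 4q and 0.50 (0.20 to 1.17) on 4p, with 56 and 9 intervals of the class. In parental cells neither arm had an excess, at 0.60 and 0.45. Band 4q28.1 held 13 of the DTP class and 4q32.1 held 11.

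In DTP and DTP + TSA most members of the class had their summit near one end. In DTP the summit, as given in the deposited list, lay within the outer 20% of the length at either end in 91 of 128, or 71.1% (62.4 to 78.8), against 27 of 87, or 31.0% (21.5 to 41.9), of intervals of 4.8 to 5.2 and 6.8 to 7.2 kb. In DTP + TSA this was 73.8% (61.5 to 84.0) against 40% (27.6 to 53.5). In parental cells the shares were 20% and 20.3%. The other 22 interiors had 55.0% (52.8 to 57.3) against 33.6% (31.6 to 35.6) in DTP. In DTP + TSA they had 52.9% against 31.9%. In DTP chromosome 13 had 58.0% against 35.4% and chromosome 18 had 68.8% against 28.6%, so both comparison interiors shared the trait there. In DTP + TSA chromosome 13 had 61.9% against 47.1%. Chromosome 18 had 42.9% against 46.4% in DTP + TSA, with 21 and 28 intervals. In parental cells chromosome 13 had 33.3% against 18%, with 24 and 61 intervals, and chromosome 18 had 24.0% against 14.8%.

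Most of the class was still found after TSA, often with other borders. DTP + TSA intervals met 119 of the 128, or 93.0% (87.1 to 96.7), and 37 of the 128 had both borders within 400 bp of those of a DTP + TSA interval. Of the flanking lengths 86.2% (77.1 to 92.7) overlapped, and of the class in the other 22 interiors 89.0% did. With parental cells 53 of the 128, or 41.4% (32.8 to 50.4), overlapped, against 41.8% elsewhere, and 2 had the same borders. Both shares were thus close to those of the other interiors.

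The strongest interval of chromosome 4 was the same in each library. It spans chr4:68264201-68266800 in 4q13.2, with the same borders in all 3 lists, and its mean value was above 99.9% of each list. Next in order in DTP and DTP + TSA was chr4:132655201-132667600 in 4q28.3, 12.4 kb long, again with the same borders in both. The longest parental interval, 37.4 kb at chr4:7550001-7587400 in 4p16.1, was covered to 57.8% in DTP and to 80.7% in DTP + TSA. The longest interval of DTP + TSA, 26.6 kb at chr4:8892001-8918600, also lay in 4p16.1, and 56.4% of it was covered in DTP and 9.77% in parental cells.

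The longest interval found in parental cells alone was chr4:38233201-38245600 in 4p14, 12.4 kb long. The longest of DTP alone was 7.2 kb, chr4:124633001-124640200 in 4q28.1, with a rank of 7.08 in its list. The longest of DTP + TSA alone was 10.4 kb, chr4:8777601-8788000 in 4p16.1. Among DTP intervals that were absent from parental cells and met a DTP + TSA interval, the longest was 12.2 kb, chr4:159899601-159911800 in 4q32.1.

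Gene families of chromosome 4 were placed only by band. Genes of a GRCh38 table were assigned to GRCh38 bands, and coverage was read in the equally named hg19 band, so the values are those of the band and not of a gene. For a list, band shares were averaged gene by gene, so a band with several genes of the list counts once for each. Each of the 11 lists lay in bands that were higher in DTP than in parental cells, as all bands were. The genes of EGFR ligands, which activate the receptor that erlotinib blocks (EGF in 4q25 and EREG in 4q13.3 among 5), had a mean over genes of 1.67% before drug, 4.84% in DTP and 2.89% after TSA. The receptor kinase genes of 4q12, PDGFRA, KIT and KDR, lay in a band with 1.76%, 6.34% and 4.91%. The 7 alcohol dehydrogenase genes lay in 4q23, the most covered band in parental cells and DTP.

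Genes expressed in neurons, most of them long, gave 8 genes in 7 bands with a mean over genes of 0.70% before drug, 2.44% in DTP and 1.73% after TSA. The CXC chemokine genes, which encode signals that attract leukocytes, had means of 1.80%, 5.05% and 3.10%. The albumin family and the casein and saliva genes all lay in 4q13.3, at 1.69%, 5.02% and 2.77%, and the protocadherin genes had means of 1.5%, 2.67% and 1.88%. The 9 UGT2 genes, which encode enzymes that conjugate steroids and bile acids, had means of 0.87%, 2.99% and 2.06%. The housekeeping and chromatin genes, 9 genes in 8 bands, had 2.71%, 5.48% and 3.96%. The GABA receptor genes of 4p12 were on the arm with the smaller change, at 2.27%, 3.22% and 2.62%.

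Across the 43 bands, coverage and the number of protein-coding genes per Mb had a Spearman rho of 0.35 for parental cells, 0.43 for DTP and 0.57 after TSA. The bands share the libraries and their base composition, and these values are given as a description.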

How the data were processed

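H3K9me3 ChIP-seq was used from 3 of 8 samples, 1 per state; 2 H3K4me3 and 3 input samples were not analysed here. The authors deposited 1 list of enriched intervals per library, with summit value and mean value as signal, per the file headers. BWA, SICER, hg19 and dm3 are named without version or role, per the submitters' processing notes. Not given in the sources used here are the threshold of the calls, the matching input and whether libraries were scaled. Depth is unknown, and differences in depth or threshold between libraries can change interval numbers and lengths. No sample column was left unused.

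Covered length was computed on the deposited grid of 200 bp, and an interval belonged to the interior by its midpoint. A tile was called at a difference of at least 2 times and 2 kb. Tiles, intervals and bands were named by size: the 5 tiles with the largest rise and fall in each step, the 3 longest and 3 strongest intervals per library, the longest of each state pattern and the longest empty run. R 4.3.3 gave the bands (circlize 0.4.16) and the lengths of chromosomes (GenomeInfoDb 1.38.1). Python 3.11.15 was used for the rest, with scipy 1.17.1, matplotlib 3.10.9, pandas 2.3.3 and numpy 2.4.6. The interval code returned the known answer in 11 of 11 checks on simulated data. The chromosome, the 6 kb class, the gene lists and the rules were chosen with earlier results of these data known, and the arms, the distal short arm and the summit position after these values were seen. Coordinates are 1-based on hg19.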

Additional observations from a re-analysis of the deposited data

How the results depend on the processing

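Of 78 alternative values, 30 stayed close, 40 moved and 8 reversed. Close means within the counting interval for ratios and overlap shares, and within 1.5 times for shares of tiles. The covered shares of chromosome 13 without its short arm were counted as moved without such a comparison. No library could be left out, since each state has 1. When each library was limited to 23842 intervals by mean value, the DTP over parental ratio turned to 0.80 (4p 0.54, 4q 0.95) and DTP + TSA over parental to 0.61. By summit value these were 0.93 (4p 0.64, 4q 1.08) and 0.69. With intervals below 2600 bp removed the ratios were 1.75 (4p 0.97, 4q 2.17) and 1.28, and with intervals above each library's median mean value DTP + TSA over parental was 1.91. For the whole interior DTP + TSA over DTP stayed below 1 throughout, at 0.74 by summit value and 0.73 without short intervals. It was 0.73 without the outer 10 Mb and 0.84 with only the outer 2 Mb left out. By arm, over the 6 choices of intervals, this ratio was between 0.64 and 0.74 on 4q and between 1.05 and 1.14 on 4p. Beyond the outer 10 Mb, 4p had 0.76. Over all 23 interiors this ratio was 0.86 by summit value and 0.93 without short intervals.

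The parental share overlapping DTP was 40.5% with equal numbers by mean value, 40.2% by summit value, 61.8% in the upper part, 49.2% without short intervals, 70.6% with intervals within 5 kb joined and 58.1% when at least 50% of an interval had to overlap. In the same order the DTP share overlapping parental cells was 39.5%, 43.0%, 23%, 29.0%, 26.5% and 20.4%. The DTP share overlapping DTP + TSA was 55.0%, 60.6%, 58.9%, 55.2% and, at 50% overlap, 59.2%.

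Tiles higher in DTP were 6.54% with equal numbers by mean value, 8.12% by summit value, 9.93% in the upper part, 16.4% without short intervals, 11.9% at 20 kb and 38.7% at 100 kb. Tiles lower after TSA were 5.69%, 6.96% and 5.09% under the first 3 of these and 5.30% at 20 kb. The ratio of the 6 kb class in DTP was 3.73 with equal numbers by mean value, and it was above 2 in each setting tried. The cause of these movements was not tested.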
